A study of Mus musculus with 6 samples.

Results

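The genes of the cohesin and condensin complexes and of their relative SMC5/6 were followed in cooled mouse T cells. They are Smc1a, Smc3, Rad21, Stag1 and Stag2 of cohesin, Smc2, Smc4 and Ncaph of condensin, and Smc5 and Smc6 of the SMC5/6 complex. Each was found by its exact gene symbol in the deposited table, which gave 10 genes of 41079 listed, and all 10 passed the filter on low values that left 12227 genes for testing. D10 is described as a mouse CD4+ T cell line grown from 1 clone, which stands for no other T cells. Cells were kept for 24 h either at 26°C (cold-acclimated, 3 replicates) or at 37°C (non-acclimated, 3 replicates), with no other difference named. Poly(A)+ RNA of the 6 cultures was sequenced, and abundance was deposited as TPM, a measure that divides reads by gene length and sets every library to the same total. In the deposited GRCm39 coordinates Smc1a (X:150799386-150844969) and Stag2 (X:41238172-41366063) lie on the X chromosome. Smc3 (19:53588827-53634262) and Smc5 (19:23183817-23251286) share chromosome 19. The others are Smc2 (4:52438966-52488365), Smc4 (3:68912071-68941956), Smc6 (12:11315887-11369786), Rad21 (15:51826000-51856934), Stag1 (9:100479762-100840597) and Ncaph (2:126945729-126975857). The medium, common to both groups, is given as an RPMI medium in the labels and as DMEM in the study's methods.

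Cohesin is a ring of Smc1a, Smc3 and Rad21, joined by either Stag1 or Stag2, that holds sister chromatids together from DNA replication to anaphase and forms chromatin loops in interphase. Condensin compacts chromosomes for mitosis. Smc2 and Smc4 are its core in both of its forms, condensin I with Ncaph and condensin II with Ncaph2, and SMC5/6 acts in DNA repair and at stalled replication forks.

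The label was checked against cell type markers before any comparison. Of the 9 T cell markers, 7 passed the filter, and their most abundant gene, Cd3g, had a mean of 1325 TPM. Cd4, however, stood at 1.09, 0.0351 and 310 TPM in non-acclimated replicates 1, 2 and 3, whereas at 26°C it stood at 1.30, 0.352 and 328 TPM. A cell type labelled CD4+ was therefore nearly without Cd4 transcripts in replicates 1 and 2 of both conditions and rich in them in replicate 3. Whether all replicates came from the same stock of the line is not stated and was not tested. Thy1 was listed at 0 in every library, and Cd5 in all but cold-acclimated replicate 3, at 0.0454 TPM. All 4 Th2 markers passed the filter, led by Gata3 (630 ± 84.6 TPM at 37°C and 592 ± 186 TPM at 26°C, SD, n = 3 each). The markers of CD8 T cells (Cd8a, Cd8b1) and NK cells (Ncr1, Klrb1c) stayed at or below 0.225 TPM. Of the B cell markers Ms4a1 and H2-Aa were listed at 0 in every library, whereas Cd74 reached 8.04 TPM and Ighm 3.13 TPM.

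Replicate 3 stood apart from the others in both conditions, and its cold-acclimated library decided most values below. Values of the 10 genes that it moves most are therefore given with and without it. Replicate 2 differed from the others in some markers in both conditions, as in Cd28, at 7.35 TPM at 37°C and 5.61 TPM at 26°C against 27.9 to 54.5 TPM in the other libraries. The labels mention older and newer RNA batches but assign no library to them, so the part of a batch in this difference was not tested. The libraries held 16899628, 21462543 and 31290854 recovered reads at 37°C and 19605883, 20579363 and 25169484 at 26°C, in the order of the replicates. At that depth the lowest read number behind any value of the 10 genes was 342, for Ncaph in cold-acclimated replicate 2, so counting error was small beside the spread between replicates.

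The comparison asks which of these genes differ in mRNA abundance between cells held at 26°C and at 37°C. Smc4, an ATPase of the condensin core, fell after cold acclimation, a call that 8 of 16 settings gave. The other condensin members and Stag2 were far lower at 26°C in replicates 1 and 2, and their calls likewise depended on the libraries and the fit, and cohesin ring and SMC5/6 genes differed less. In cold-acclimated replicate 3 the 10 genes stood at 59.8% (Stag2) to 160% (Rad21) of their levels in replicate 3 at 37°C. Differences are on the log2(TPM + 1) scale, 26°C minus 37°C, tested with limma over all 12227 genes. A gene was called where the p adjusted after Benjamini and Hochberg lay under 0.05 and the difference was at least 1 in size.

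Smc4 stood at 244, 203 and 147 TPM in non-acclimated replicates 1, 2 and 3, against 40.5, 23.8 and 113 TPM at 26°C. The conditions did not overlap, although 113 and 147 TPM in replicate 3 lay close. Smc4 fell by 1.99 on the log2 scale (SE 0.53, limma adjusted p = 0.0373), and was lower at 26°C in 3 of 3 replicates. The call held without cold-acclimated replicate 3 (log2 fold change -2.60, limma adjusted p = 0.00354). It was lost without any single one of the other libraries: with limma the adjusted p was 0.114, 0.111 and 0.0527 without non-acclimated replicates 1, 2 and 3, and 0.121 and 0.103 without cold-acclimated replicates 1 and 2. It was also lost after median of ratios scaling between libraries (log2 fold change -1.60, limma adjusted p = 0.0620). Over all settings tried the adjusted p of limma for Smc4 ranged from 0.00354 to 0.121.

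Smc2, the ATPase that pairs with Smc4, stood at 113, 112 and 136 TPM at 37°C and at 26.0, 12.8 and 109 TPM at 26°C. All 3 cold-acclimated values lay below all 3 non-acclimated ones, but the highest of them was almost at the 37°C level. Its log2 fold change was -1.81 (SE 0.67, limma adjusted p = 0.0928), past the threshold with a replicate block (limma adjusted p = 0.0272) and without cold-acclimated replicate 3 (log2 fold change -2.65, limma adjusted p = 0.00328). Without cold-acclimated replicate 2 it was -1.15 (limma adjusted p = 0.238). Ncaph, the kleisin subunit that closes the condensin I ring, stood at 150, 120 and 85.0 TPM at 37°C and at 25.9, 14.2 and 84.3 TPM at 26°C. The replicate 3 libraries were nearly equal, at 99.2% of the 37°C level, against 17.3% and 11.9% in replicates 1 and 2. The log2 fold change of Ncaph was -1.83 (SE 0.59, limma adjusted p = 0.0642), -2.52 without cold-acclimated replicate 3 (limma adjusted p = 0.00445), and past the threshold with a replicate block (limma adjusted p = 0.0385). Without cold-acclimated replicate 2 that of Ncaph was -1.28 (limma adjusted p = 0.171). The geometric mean of these 3 condensin genes at 26°C was 18.8%, 11.7% and 84.9% of that at 37°C in replicates 1, 2 and 3.

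Among the cohesin genes, Stag2, one of the alternative subunits that bind Rad21, had the lowest log2 fold change. It stood at 40.2, 42.2 and 69.2 TPM at 37°C and at 9.90, 11.8 and 41.3 TPM at 26°C, and the conditions overlapped only through cold-acclimated replicate 3. Within each replicate number Stag2 was lower at 26°C, at 24.7%, 28.0% and 59.8% of the 37°C level. The log2 fold change was -1.47 (SE 0.52, limma adjusted p = 0.0832). It was past the threshold with a replicate block (limma adjusted p = 0.0117) and without cold-acclimated replicate 3 (log2 fold change -2.08, limma adjusted p = 0.00500). Without cold-acclimated replicates 1 and 2 in turn, Stag2 was at -1.10 and -1.22 (limma adjusted p = 0.241 and 0.231). After median of ratios scaling it was at -1.08 (limma adjusted p = 0.149). Stag1, its paralogue, stood at 14.0, 18.2 and 17.9 TPM at 37°C and at 8.97, 11.5 and 19.7 TPM at 26°C. Its conditions overlapped, with the highest of the 6 values in a cold-acclimated library, and its log2 fold change of -0.36 (SE 0.32, limma adjusted p = 0.465) turned to 0.02 after median of ratios scaling. It was -0.65 without cold-acclimated replicate 3 (limma adjusted p = 0.106) and -0.125 without cold-acclimated replicate 1.

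Rad21, the kleisin that separase cleaves at anaphase, was the most abundant of the 10 genes per length. Its levels were 290, 305 and 376 TPM at 37°C and 155, 126 and 600 TPM at 26°C. The cold-acclimated libraries thus held both the lowest values and the highest one, and replicate 3 stood at 160% of its 37°C level where replicates 1 and 2 stood at 53.3% and 41.3%. The log2 fold change was -0.50 (SE 0.55, limma adjusted p = 0.554), and -1.20 without cold-acclimated replicate 3 (limma adjusted p = 0.0129), which passed the threshold. Without cold-acclimated replicates 1 and 2 in turn it was -0.22 and -0.08. Smc1a, an ATPase of the ring encoded on the X chromosome, showed the same division, with 137, 146 and 165 TPM at 37°C and 62.4, 54.1 and 173 TPM at 26°C. Its log2 fold change was -0.82 (SE 0.43, limma adjusted p = 0.205), and -1.34 without cold-acclimated replicate 3 (limma adjusted p = 0.00676), also past the threshold. Without cold-acclimated replicate 2 it was -0.51. Smc3, its partner in the ring, stood at 54.1, 75.0 and 58.6 TPM at 37°C and at 34.3, 36.2 and 57.6 TPM at 26°C. Its highest value at 26°C lay above its lowest at 37°C, and its log2 fold change was -0.57 (SE 0.28, limma adjusted p = 0.179). Without cold-acclimated replicate 3 that of Smc3 was -0.80 (limma adjusted p = 0.0473), under 1 in size and so not called. Of the 5 cohesin genes limma thus called 0, where 16.0% of all tested genes were called downregulated. At an unadjusted p under 0.05 limma gave 1 lower, against 3664 of all 12227 tested. The number called by limma-voom was 0, against 9.18% of all tested genes downregulated. With a replicate block limma called 1 (Stag2), against 21.9% of all tested genes. Without cold-acclimated replicate 3 it called 3 (Smc1a, Rad21 and Stag2), against 22.3%.

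Smc5 and Smc6, the ATPases of the SMC5/6 complex, were not called in either direction. Smc5 stood at 78.2, 51.6 and 59.3 TPM at 37°C and at 36.8, 25.4 and 71.8 TPM at 26°C, so that the conditions overlapped (log2 fold change -0.60, SE 0.39, limma adjusted p = 0.305). Without cold-acclimated replicate 3 the adjusted p of limma for Smc5 was 0.0414, with a difference just under 1 in size, so it was not called. Without cold-acclimated replicate 2 its log2 fold change was -0.27. Smc6 stood at 45.9, 51.3 and 54.7 TPM at 37°C against 30.9, 35.0 and 42.9 TPM at 26°C. It was the gene in which replicate 3 differed least from the others, with 67.4%, 68.2% and 78.4% of the 37°C level in replicates 1, 2 and 3. Its conditions did not overlap, but its log2 fold change of -0.48 (SE 0.23, limma adjusted p = 0.165) was not called.

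**Figure D1:**
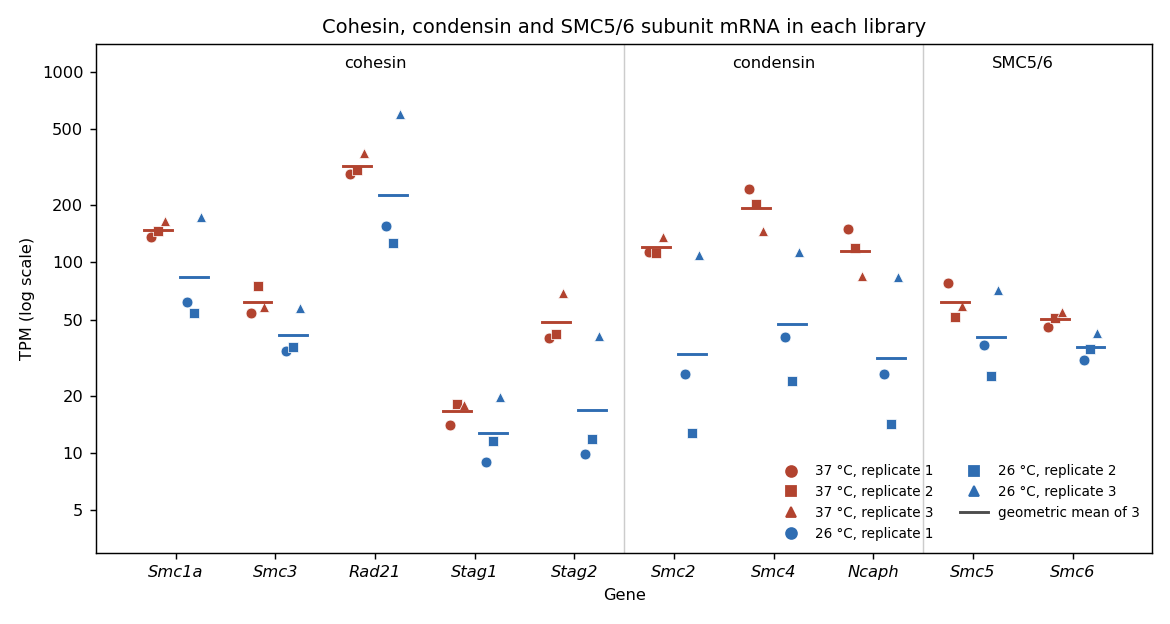
TPM of the 10 genes on a log axis in each of the 6 libraries, with non-acclimated libraries (37°C) in red, cold-acclimated ones (26°C) in blue, the marker shape giving the replicate number and each line the geometric mean of 3 libraries. In cold-acclimated cells replicate 3 lies above replicates 1 and 2 for every gene shown, as for Rad21 at 600 TPM against 155 and 126.

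In all, 1 of the 10 genes was called downregulated (Smc4), where 16.0% of all tested genes were, and 0 of 10 were called upregulated, where 2.63% were. In this fit, which ignores the pairing by replicate number, the share called downregulated is no larger than that of genes in general. With a replicate block it was larger, as given below. At an unadjusted p under 0.05 limma gave 0 genes higher and 4 lower at 26°C, against 3664 lower of all 12227 tested, and limma-voom called 0 in either direction, against 9.18% downregulated of all tested genes. The conditions did not overlap for 4 of the 10 (Smc2, Smc4, Smc6 and Ncaph, lower at 26°C in each), against 31.4% of all tested genes, and 6 were lower at 26°C in every replicate pair, against 47.9%. Without cold-acclimated replicate 3, 6 of 10 were called downregulated (Smc1a, Smc2, Smc4, Rad21, Stag2 and Ncaph), against 22.3% of all tested genes. With both libraries of replicate 3 left out, an alternative chosen after seeing the data, Smc5 passed as well, which made 7 of 10 against 25.3%. A fit with the replicate number as a block called 4 (Smc2, Smc4, Stag2 and Ncaph) against 21.9%. Median of ratios scaling called 0 of 10 against 8.79% of all tested genes downregulated, with 2 of 10 below an unadjusted p of 0.05 in limma. Both together, also chosen after seeing the data, called 2 (Smc4 and Stag2) against 12.6%. Over all genes 321 were called up and 1954 down on the TPM scale, and 802 up and 1075 down after that scaling.

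The median log2 fold change of the 10 genes was -0.71, and that of all tested genes -0.34. After median of ratios scaling these medians were -0.32 and 0.02, so the scaling moved both by a similar amount. With the median of the tested genes subtracted, Smc4 lay at -1.65, Ncaph at -1.49, Smc2 at -1.47 and Stag2 at -1.13, whereas Stag1 lay at -0.02, Smc6 at -0.14, Rad21 at -0.16, Smc3 at -0.23, Smc5 at -0.26 and Smc1a at -0.48. By replicate number the median of the 10 differences was -1.09 in replicate 1, -1.34 in replicate 2 and -0.02 in replicate 3, against -0.32, -0.44 and -0.24 for all tested genes. In these bulk samples, fewer cells that express a gene and less of its RNA per cell cannot be told apart.

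Condensin and cohesin ring levels were also set beside each other within each library. The geometric mean of Smc1a, Smc3 and Rad21 at 26°C was 53.6%, 42.0% and 118% of that at 37°C in replicates 1, 2 and 3, and that of Smc5 and Smc6 was 56.3%, 57.9% and 97.4%. Dividing the condensin mean by the cohesin ring mean within a library gave 1.24, 0.935 and 0.775 at 37°C and 0.435, 0.260 and 0.558 at 26°C. The conditions did not overlap in this ratio, which was lower at 26°C in replicate 3 too, at 72.0% of its 37°C value. The ratio was set up after the values were seen and was not tested.

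The wider condensin list shows which subunits accompany the members. Ncapd2, a HEAT-repeat subunit of condensin I, fell from 156, 182 and 130 TPM at 37°C to 16.4, 11.8 and 70.6 TPM at 26°C (log2 fold change -2.63, SE 0.60, limma adjusted p = 0.0234). Ncapg, the other HEAT-repeat subunit of condensin I, fell from 126, 114 and 82.8 TPM to 18.9, 12.2 and 49.2 TPM (log2 fold change -2.18, SE 0.48, limma adjusted p = 0.0214). Neither gene overlapped between conditions, and in replicate 3 they stood at 54.3% and 59.5% of the 37°C level where Ncaph stood at 99.2%. Of condensin II, Ncapd3 fell from 69.4, 40.7 and 38.2 TPM to 12.6, 10.1 and 25.1 TPM (log2 fold change -1.62, SE 0.39, limma adjusted p = 0.0279). Ncaph2, its kleisin, was the condensin subunit with the least difference, at 184, 183 and 234 TPM against 118, 84.4 and 219 TPM (log2 fold change -0.61, limma adjusted p = 0.252). Leaving out cold-acclimated replicate 3 took Ncaph2 to -0.99 on that scale (limma adjusted p = 0.0302), which was not called. Ncapg2 had a log2 fold change of -1.90 (limma adjusted p = 0.0612), the lowest of condensin II, and was called without cold-acclimated replicate 3 (log2 fold change -2.66, limma adjusted p = 0.00250). With other libraries left out, its adjusted p in limma reached 0.182. The calls of Ncapd2, Ncapg and Ncapd3 were lost without non-acclimated replicate 1 or 2 or cold-acclimated replicate 1 or 2, with a limma adjusted p of up to 0.0887 for Ncapd2 and 0.0821 for Ncapg and of at least 0.0811 for Ncapd3. Median of ratios scaling ended the call of Ncapd3 as well (limma adjusted p = 0.0565). So 2 of 3 condensin I genes, 1 of 3 condensin II genes and 1 of the 2 shared SMC genes were called, all lower at 26°C, against 16.0% of all tested genes, and the medians of these lists were -2.18, -1.62 and -1.90. With a replicate block the counts were 3 of 3, 2 of 3 and 2 of 2, against 21.9%. Median of ratios scaling left 2, 0 and 0 called, against 8.79%.

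Among 10 genes that load, release or acetylate cohesin or stop it on DNA, 1 was called, against 16.0% of all tested genes downregulated. Pds5b, which binds the ring beside Wapl, fell from 52.2, 68.2 and 68.6 TPM at 37°C to 13.8, 17.7 and 27.2 TPM at 26°C (log2 fold change -1.68, SE 0.30, limma adjusted p = 0.0121). Replicate 3 took part in this difference, at 39.6% of the 37°C level against 26.5% and 25.9%. Its call was lost without non-acclimated replicate 2 or cold-acclimated replicate 1 or 2, where the adjusted p of limma reached 0.0598. Esco1, an acetyltransferase of Smc3, was the gene of this list with the highest log2 fold change, 0.26 (limma adjusted p = 0.418), at 27.6, 29.7 and 32.5 TPM against 33.9, 34.4 and 39.9 TPM. Its libraries at 26°C all lay above those at 37°C, which was so for 9.69% of all tested genes. The median of the list was -0.45.

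Of 6 tested genes that establish cohesion at replication forks, 3 were called downregulated, against 16.0% of all tested genes, and Chtf8 was listed at 0 in every library. Chtf18, of an alternative clamp loader, fell from 28.1, 32.9 and 30.1 TPM to 2.89, 2.22 and 14.4 TPM (log2 fold change -2.44, SE 0.56, limma adjusted p = 0.0246). Ddx11, a helicase, fell from 30.8, 40.7 and 19.3 TPM to 10.9, 8.80 and 5.96 TPM (log2 fold change -1.68, SE 0.35, limma adjusted p = 0.0188), and its cold-acclimated replicate 3 was the lowest of the 6 libraries. Wdhd1, which links the replicative helicase to DNA polymerase alpha, fell from 23.5, 37.4 and 53.4 TPM to 5.77, 3.42 and 19.7 TPM (log2 fold change -2.12, SE 0.58, limma adjusted p = 0.0401), and median of ratios scaling ended this call (limma adjusted p = 0.0618). The calls of Chtf18 and Wdhd1 held without cold-acclimated replicate 3 and were lost without any other single library, with a limma adjusted p of up to 0.0904 and 0.129. That of Ddx11 was lost without non-acclimated replicate 1 or 2 or cold-acclimated replicate 1 or 2, with a limma adjusted p of up to 0.0785. Tipin had the highest log2 fold change of the list, -1.14 (limma adjusted p = 0.136), and the median was -1.90.

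Of 7 genes that protect cohesin at centromeres or govern its cleavage, 2 were called downregulated, against 16.0% of all tested genes. Both are mitotic kinases. Bub1 fell from 117, 114 and 60.7 TPM to 14.2, 9.01 and 45.4 TPM (log2 fold change -2.29, SE 0.56, limma adjusted p = 0.0297). Plk1, which phosphorylates cohesin in prophase, fell from 231, 311 and 177 TPM to 48.2, 28.2 and 151 TPM (log2 fold change -1.96, SE 0.57, limma adjusted p = 0.0480). The call of Bub1 was lost without non-acclimated replicate 1 or 2 or cold-acclimated replicate 1 or 2, with a limma adjusted p of up to 0.104. That of Plk1 held without cold-acclimated replicate 3 and was lost without any other single library, with a limma adjusted p of up to 0.146. The call of Plk1 was also ended by median of ratios scaling (limma adjusted p = 0.0777), with or without a block, by a pseudocount of 0.1, by no filter on low values and by a fit without the trend. Pttg1, the inhibitor of separase, had the highest log2 fold change of the list, -0.87 (limma adjusted p = 0.302), and the median was -1.34. The meiotic cohesin subunits were close to 0, with Smc1b and Rad21l listed at 0 in every library, Rec8 at no more than 0.357 TPM and Stag3 at no more than 0.215 TPM.

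In the SMC5/6 list of 9 genes 2 were called downregulated, Slf1 and Slf2, against 16.0% of all tested genes. Slf1 fell from 15.8, 18.9 and 19.5 TPM to 4.31, 3.91 and 10.1 TPM (log2 fold change -1.53, SE 0.36, limma adjusted p = 0.0254), and Slf2 fell from 13.8, 16.1 and 15.5 TPM to 3.67, 4.11 and 7.96 TPM (log2 fold change -1.43, SE 0.31, limma adjusted p = 0.0215). In replicate 3 they stood at 51.6% (Slf1) and 51.3% (Slf2) of the 37°C level. The call of Slf1 held without cold-acclimated replicate 3 and was lost without any other single library, with a limma adjusted p of up to 0.0952, and that of Slf2 was lost without non-acclimated replicate 1 or 2 or cold-acclimated replicate 1 or 2, with a limma adjusted p of up to 0.0864. The highest log2 fold change of the list, that of Eid3, was 0.09 at levels of no more than 2.13 TPM, and the median was -0.48. Among 9 partners in chromosome structure 2 were called downregulated, against the same 16.0%. Top2a, a topoisomerase of condensed chromosomes, fell from 531, 441 and 483 TPM to 54.6, 33.4 and 278 TPM (log2 fold change -2.58, SE 0.69, limma adjusted p = 0.0383), and Aurkb fell from 201, 170 and 163 TPM to 39.4, 17.8 and 86.3 TPM (log2 fold change -2.14, SE 0.51, limma adjusted p = 0.0266). The calls of Top2a and Aurkb held without cold-acclimated replicate 3 and were lost without any other single library, with a limma adjusted p of up to 0.128 and 0.0877. The call of Top2a was also ended by median of ratios scaling (limma adjusted p = 0.0564). Akap8, an anchoring protein that binds condensin, stood at 35.8, 46.4 and 89.4 TPM at 37°C and higher at 26°C, at 94.4, 134 and 160 TPM (log2 fold change 1.24, SE 0.38, limma adjusted p = 0.0539). It was higher at 26°C in 3 of 3 replicates and passed the threshold with a replicate block and after median of ratios scaling. With single libraries left out, the adjusted p of limma for Akap8 reached 0.158.

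Over these lists, 13 of 44 tested genes beside the 10 members were called downregulated and 0 upregulated, against 16.0% downregulated of all tested genes, with 23 lower and 1 higher (Akap8) at an unadjusted p under 0.05 in limma, against 3664 and 948 of all 12227. limma-voom called 9 downregulated and 1 upregulated, against 9.18% of all tested genes downregulated. Their median log2 fold change was -1.20, against -0.34 for all tested genes, and 22 of the 44 did not overlap and were lower at 26°C, against 31.4% of all tested genes. The number called downregulated was 27 without cold-acclimated replicate 3 and 21 with a replicate block, where 21.9% of all tested genes were called. Without that library limma called 6 of 7 genes of cohesin protection and cleavage, 4 of 10 of its loading, release and acetylation and 5 of 9 structure partners, against 22.3%. In the SMC5/6 list it called 2 of 9, no more than with all 6 libraries. With the block, the genes of cohesion at replication forks went from 3 to 6 of 6 called downregulated. Without a filter on low values 2 were called downregulated, Pds5b and Ddx11, against 1121 of the 21195 genes tested in that fit. Among these pathway genes 1, 0 and 9 were called downregulated without non-acclimated replicates 1, 2 and 3. The numbers among all 12227 tested genes were then 527, 345 and 1820. Without cold-acclimated replicate 1 or cold-acclimated replicate 2 the number of pathway genes was 0, against 450 and 600 of all tested genes.

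**Figure D2:**
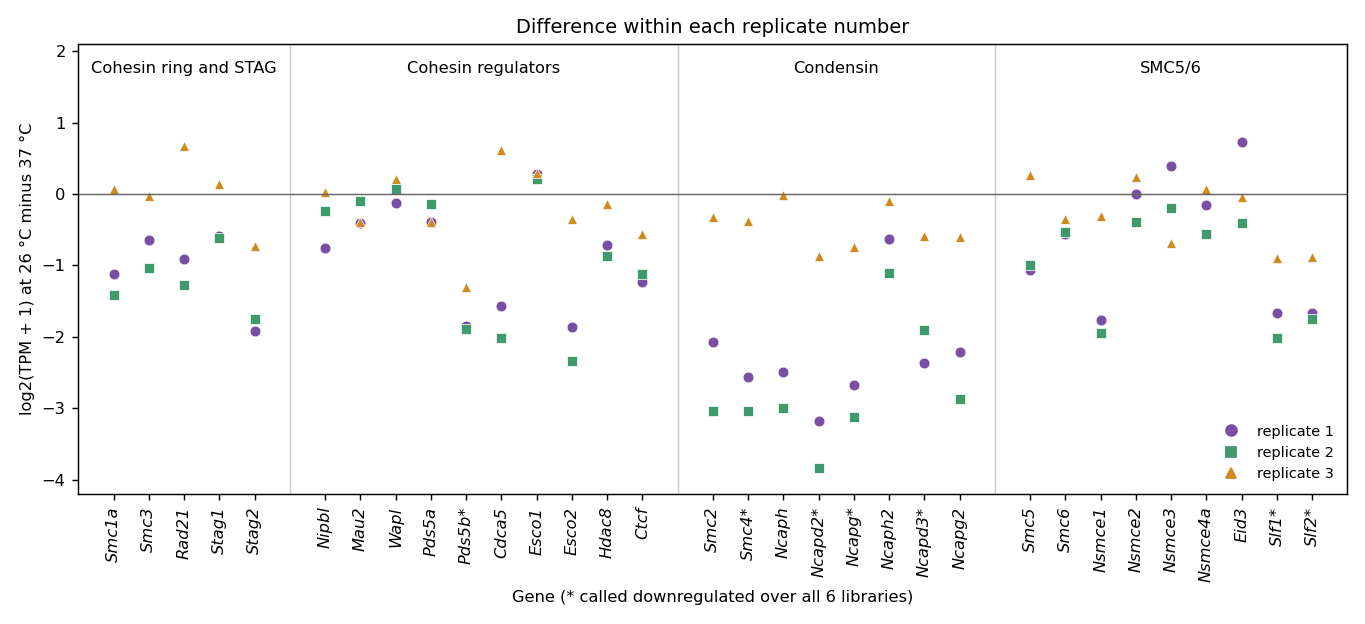
Difference in log2(TPM + 1) at 26°C minus 37°C within each replicate number, for cohesin subunits, cohesin regulators, condensin subunits and SMC5/6 genes, with genes called downregulated marked by an asterisk. The condensin genes lie between -3.84 (Ncapd2, replicate 2) and -0.01 (Ncaph, replicate 3), and replicate 3 lies nearer to 0 than replicates 1 and 2 for each of them.

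Pairs of genes whose products replace each other, or are partners in a complex, were compared as ratios within a library, which no scaling between libraries can alter. With 3 libraries against 3 the exact two-sided permutation test cannot give a p below 0.1. Stag1 over Stag2 was 0.350, 0.431 and 0.258 at 37°C and 0.906, 0.978 and 0.477 at 26°C. The conditions did not overlap, and the balance moved towards Stag1 in 3 of 3 replicates, cold-acclimated replicate 3 included. The log2 difference was 1.15 (exact permutation p = 0.1, the smallest possible; adjusted over 8 ratios, 0.533), and 1.47 without cold-acclimated replicate 3. The level of Stag1 against Stag2 depends on gene length: the values imply 25284 bases for Stag1, more than the 6186 of its canonical GENCODE transcript or the 12197 of all its GENCODE exons together. In recovered reads, undivided by length, the ratio over the summed libraries was 1.12 at 37°C and 2.21 at 26°C.

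Pds5a over Pds5b, a pair added after the values were seen, was 1.75, 1.47 and 1.74 at 37°C and 5.01, 5.14 and 3.33 at 26°C. Esco1 over Esco2, added likewise, was 1.31, 1.22 and 1.23 at 37°C and 6.69, 8.62 and 1.95 at 26°C. In both pairs the conditions did not overlap, with log2 differences of 1.42 and 1.94 (exact permutation p = 0.1 each, adjusted over the 3 added ratios 0.15). As these pairs were added with their values known, the p-values only describe them and decide nothing. Esco2, which acetylates Smc3 during S phase, was at 21.0, 24.3 and 26.3 TPM at 37°C and at 5.06, 3.99 and 20.4 TPM at 26°C (log2 fold change -1.52, limma adjusted p = 0.0779). Esco2 was called without cold-acclimated replicate 3 (log2 fold change -2.17, limma adjusted p = 0.00290) and with a replicate block (limma adjusted p = 0.0259). With other libraries left out, the adjusted p of limma for Esco2 reached 0.223. Top2a over Top2b, the last added pair, overlapped between conditions (log2 difference -1.77, exact permutation p = 0.3).

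The kleisins of the 2 condensins, Ncaph over Ncaph2, had ratios of 0.815, 0.653 and 0.363 at 37°C and 0.219, 0.168 and 0.386 at 26°C. The ratio was lower in replicates 1 and 2 and not in replicate 3, and the conditions overlapped (log2 difference -1.26, exact permutation p = 0.2, adjusted 0.533). Ncapd2 over Ncapd3, the HEAT-repeat counterparts, overlapped between conditions too (exact permutation p = 0.2, adjusted 0.533) and was lower at 26°C in 3 of 3 replicates. The other planned ratios differed less in log2 difference, which was 0.16 for Smc2 over Smc4, -0.12 for Smc5 over Smc6, -0.25 for Smc1a over Smc3, 0.08 for Rad21 over Smc3 and -0.23 for Ncapg over Ncapg2. Their exact permutation p lay between 0.5 and 0.9, which does not show that these ratios were equal. In replicate 3 alone Rad21 over Smc3 went from 6.41 at 37°C to 10.4 at 26°C, the highest of the 6 libraries.

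**Figure D3:**
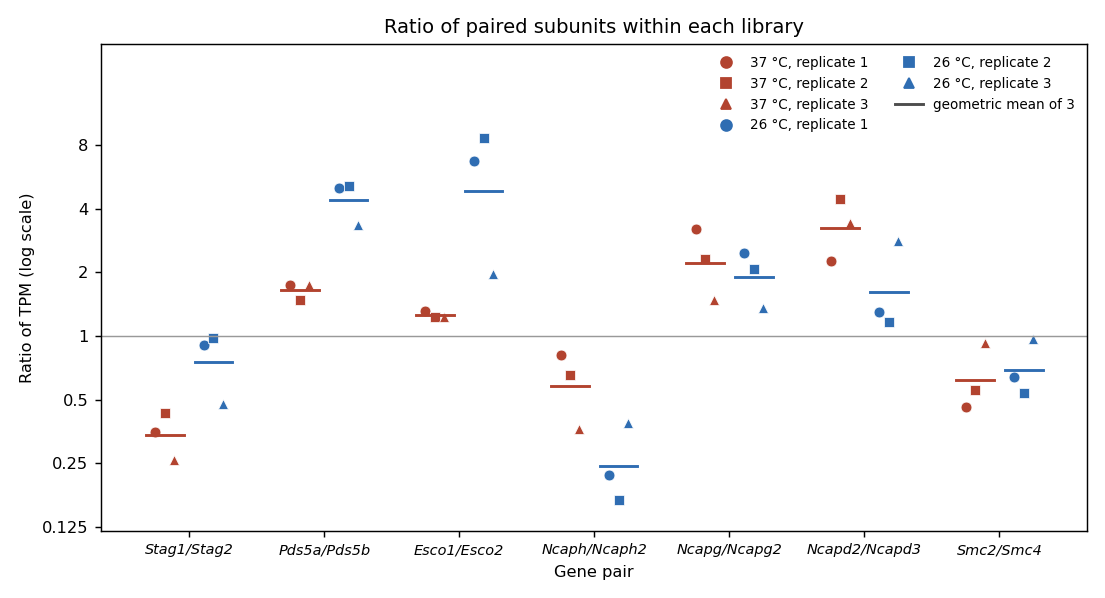
Ratio of TPM of 7 gene pairs within each library on a log axis, with 37°C in red, 26°C in blue, the marker shape giving the replicate number and each line the geometric mean of 3 libraries. Stag1/Stag2, Pds5a/Pds5b and Esco1/Esco2 do not overlap between conditions, whereas the condensin pairs and Smc2/Smc4 do.

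Genes of S phase and of G2 and M phase were measured beside the condensin and cohesin genes. The 16 S phase genes summed to 2001, 2764 and 3699 TPM at 37°C and to 875, 589 and 3151 TPM at 26°C, with Pcna the most abundant (mean 389 TPM). The 16 genes of G2 and M phase summed to 3112, 2801 and 1895 TPM at 37°C and to 833, 369 and 2055 TPM at 26°C, with Ube2c the most abundant (mean 279 TPM). Both sums were lowest in cold-acclimated replicate 2 and near the 37°C level in cold-acclimated replicate 3, where they stood at 85.2% and 108% of replicate 3 at 37°C. Of the S phase genes limma called 0 in either direction, against 16.0% of all tested genes downregulated, with 7 lower and 0 higher at an unadjusted p under 0.05 and 0 called by limma-voom, against 9.18%. Of the G2 and M phase genes limma called 2 downregulated (Tpx2 and Ttk, named after their values were seen), against the same 16.0%. At an unadjusted p under 0.05, 11 were lower and 0 higher in limma, and limma-voom called 2, against 9.18%. Over all 12227 tested genes 3664 were lower and 948 higher at that unadjusted p in limma. The call of Tpx2 was lost without any single library other than cold-acclimated replicate 3 (limma adjusted p of up to 0.103), and that of Ttk without non-acclimated replicate 1 or 2 or cold-acclimated replicate 1 (up to 0.0616). With a replicate block, 9 of the 16 S phase genes and 7 of the 16 G2 and M phase genes were called downregulated, against 21.9% of all tested genes. Without cold-acclimated replicate 3, 14 of 16 and 16 of 16 were called downregulated, against 22.3% of all tested genes. Their part in the values of the condensin and cohesin genes was not tested.

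Markers of other cells were followed in the same way. The 9 T cell markers summed to 3532, 1945 and 2933 TPM at 37°C and to 3234, 2390 and 2981 TPM at 26°C, and none of the 7 tested was called by limma or limma-voom, with 0 at an unadjusted p under 0.05. The 4 Th2 markers summed to 712, 777 and 986 TPM at 37°C and to 887, 801 and 615 TPM at 26°C, and limma called none of them, with 0 at an unadjusted p under 0.05 and 0 called by limma-voom. Over all tested genes limma called 16.0% downregulated and 2.63% upregulated. The 8 B cell markers summed to no more than 11.5 TPM in any library, led by Cd74, and the 5 of macrophages and monocytes to no more than 21.2 TPM, led by Lyz2. Of the 4 erythroid markers, Hba-a1 stood at 189, 79.9 and 485 TPM at 37°C and at 84.8, 60.8 and 473 TPM at 26°C, while Hbb-bs was listed at 0 in every library. Of the 5 tested genes of these 3 lists limma and limma-voom called 0, with 0 at an unadjusted p under 0.05. Hba-a1 was thus highest in replicate 3 of both conditions, as were Cd4 and Lyz2, and the part of this difference in the cohesin and condensin values was not tested.

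All 10 genes had their lowest values in cold-acclimated replicates 1 and 2, and the bases upstream of their transcript starts were searched for motifs. The windows were the 250 bases before the canonical GENCODE start of each gene in GRCm39, read on both strands for 3 motifs known from cell cycle promoters: TTTGAA (the CHR element), CCAAT, and the E2F words TTTCCCGC, TTTGGCGC, TTTCGCGC and TTTGCCGC. TTTGAA was found before 4 of the 10 genes (Smc2, Smc4, Smc6 and Rad21), against 15.6% of 21770 protein-coding genes. CCAAT was found before 6 of the 10 (Smc1a, Smc2, Smc4, Rad21, Stag1 and Stag2), against 36.5%, and an E2F word before 1 (Stag1), against 2.28%. Ncaph, Smc3 and Smc5 had none of the 3 motifs in their 250 bases. The last 30 bases before the start are shown for 2 genes as examples, Rad21 with a match there and Ncaph without one, with TTTGAA in capitals, 5′ to 3′ on the strand of the gene. The stretch is chr15:51855144-51855173 (-) for Rad21 and chr2:126975875-126975904 (-) for Ncaph, and in Rad21 its 30 bases also lie within an exon of another annotated transcript of the gene.
Rad21: aaacatcctgccgaTTTGAAccgaggattt
Ncaph: agccgcctaggcggcctgcgcaggcgcacc
A match describes the letters in the window, neither a bound site nor a cause, and the absence of one says only that these letters are not there.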

How the data were processed

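The TPM values were used as deposited by the authors, who selected poly(A)+ RNA, made directional libraries and sequenced read pairs. The submitters' processing notes name FastQC 0.11.7, Trimmomatic 0.38, HISAT2 2.1.0, featureCounts 1.6.3 and GRCm39. Neither the annotation release nor the strand setting is stated. Read numbers were recovered from the TPM: for 100% of 21195 genes above 0 they were whole within 1e-04 reads. limma 3.58.1 (R 4.3.3, trend) was run on log2(TPM + 1), pseudocount 1, after leaving out genes whose mean TPM was under 1. Other values came from scipy 1.17.1, pandas 2.3.3 and numpy 2.4.6 in Python 3.11.15, and figures from matplotlib 3.10.9. The fold change of low genes is understated on this scale. Deviations of libraries from their condition's mean correlated across genes at 0.48, 0.50 and 0.51 for the same replicate number. Between different numbers the correlation lay between -0.41 and 0.02. Libraries of the same number were therefore compared as pairs, although the study does not state how cultures were paired. The main fit has no replicate block, and the fit with one is given beside it. The labels treat separate batches as biological replicates. The procedure was tested on simulated data without replicate pairs or a deviating library, so that test does not cover the spread between replicates seen here. Members and lists were chosen with earlier results of these data known. Text names all members, every called pathway gene and the extremes of each list, and the most abundant gene of the cycle and marker lists.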

Additional observations from a re-analysis of the deposited data

How the results depend on the processing

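All 10 genes kept a log2 fold change below 0 in every setting except Stag1, which stood at 0.0165 after median of ratios scaling, with or without a replicate block, and at 0.0162 in limma-voom with that scaling. Genes called upregulated and downregulated over the whole table, 321 and 1954 as reported, were 184 and 1121 with no filter on low values, 802 and 1075 with libraries scaled by median of ratios, and 767 and 1122 in limma-voom scaled likewise; with median of ratios scaling and a replicate block together, chosen after seeing the data, 1086 were called upregulated. Leaving out libraries gave 59 to 653 upregulated and 345 to 3088 downregulated. Of the 10 genes, 1 as reported, 0 were called downregulated with no filter, 0 after median of ratios scaling, 0 in limma-voom, 4 with a replicate block, 2 with block and scaling together, and 0 to 7 when libraries were left out; 0 were called upregulated in any setting. Of the other pathway genes, 13 downregulated and 0 upregulated as reported, 2 were called downregulated with no filter and 21 with a replicate block, and 1 was called upregulated after median of ratios scaling, in limma-voom, with a replicate block and with both together; leaving out libraries gave 0 to 29 downregulated and 0 to 1 upregulated. More genes enter the adjustment without a filter, and fewer samples enter the fit with a library left out. Yet without cold-acclimated replicate 3 the number called downregulated over the whole table rose from 1954 to 2725. The cause of these moves was not tested. A pseudocount of 0.1, a mean TPM of at least 5 and a fit without the trend kept Smc4 as the gene called among the 10.

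With 3 pairs a replicate block cannot alter the difference of a ratio, and the exact sign-flip test cannot give a p below 0.25. With a library left out, 4 ratios changed sign. Rad21 over Smc3 (0.08) ranged from -0.39 to 0.40, below 0 without non-acclimated replicate 2 (-0.10) or cold-acclimated replicate 3 (-0.39). Smc2 over Smc4 (0.16) ranged from -0.0794 to 0.45, below 0 without non-acclimated replicate 1 (-0.05) or cold-acclimated replicate 3 (-0.08). Smc5 over Smc6 (-0.12) ranged from -0.41 to 0.20, above 0 without non-acclimated replicate 1 (0.11) or cold-acclimated replicate 2 (0.20). Ncapg over Ncapg2 (-0.23) ranged from -0.52 to 0.0420, above 0 without non-acclimated replicate 1 (0.04) or cold-acclimated replicate 3 (0.02). Smc1a over Smc3 (-0.25) ranged from -0.54 without cold-acclimated replicate 3 to -0.04 without cold-acclimated replicate 2, and Top2a over Top2b (-1.77) from -2.66 to -0.98 without the same libraries.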
